A study of Mus musculus with 6 samples.

Results

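B cells were examined among the CD45+ cells of B16-F10 melanomas, a transplantable mouse melanoma line, in 6 single-cell RNA-Seq samples. They were chosen by their own UMI counts: a barcode was taken as a B cell when it held 600 to 4000 genes and at most 10% mitochondrial unique molecular identifiers (UMIs), at least 3 UMIs of Cd79a, Cd79b and Ms4a1 together, at most 4 UMIs of the plasma cell genes Jchain, Mzb1, Sdc1 and Tnfrsf17, no UMI of Cd3d, Cd3e or Cd3g and at most 1 UMI of C1qa, C1qb and C1qc. This rule found 2385 B cells among the 30067 barcodes within the limits on genes and mitochondrial UMIs (kept barcodes) and the 52899 deposited.

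The tumors grew in female C57BL/6 mice of 6-10 weeks that had been given B16F10 cells. All mice of both groups received the anti-PD1 antibody clone 29F.1A12 at 150 µg a mouse, 3 times a week from day 7. The αPD-1 + corin group (3 samples, called corin-treated from here on) also received 200 µg of corin a mouse every day from day 6, by the intraperitoneal route, whereas the protocol gives 5% DMSO in PBS as the vehicle of corin in the αPD-1 group (3 samples). Corin inhibits both the histone demethylase LSD1 and the histone deacetylase HDAC1 of the CoREST corepressor complex. Each group had 10 mice, but the labels do not tie samples to mice, so the p-values below measure the spread between samples. Tumor cells were frozen, thawed, freed of dead cells and enriched for CD45 on magnetic beads, so a share of B cells is a share of what survived these steps.

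B cells recognize antigen through a surface immunoglobulin that signals through CD79A and CD79B. Mature naive B cells carry IgM together with IgD, and follicular cells also carry CD23, the product of Fcer2a, whereas marginal zone cells are high in CD21, the product of Cr2. After activation they can switch to IgG, IgA or IgE, enter germinal centers and become memory or plasma cells. In tumors, B cells are known to present antigen to T cells on MHC class II and to gather in lymphoid aggregates.

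The B cells carried the markers that the rule did not use. In the αPD-1 samples Ebf1, a transcription factor that founds the lineage, stood at 1840 CPM (UMIs scaled to library size) and was detected in 94.5% of the B cells, and Pax5, the factor that maintains B cell identity, stood at 655 CPM and was detected in 73.0%. In the corin-treated samples Ebf1 stood at 1170 CPM and Pax5 at 379 CPM. T cells of the αPD-1 samples, taken as barcodes with at least 2 Cd3 UMIs and none of the B cell genes, held 51.7 CPM of Ebf1 and 23.3 CPM of Pax5. Xbp1, a plasma cell factor outside the rule, stood at 1540 CPM in plasma cells of the αPD-1 samples against 56.6 CPM in αPD-1 and 122 CPM in corin-treated B cells. The last difference passed edgeR's test described below (log2 difference 1.17, adjusted p = 0.0224), but not without corin-treated replicate 1 or 2 (adjusted p = 0.264 and 0.0654), and it turned to -0.33 and -1.29 without the B cells that held S100a8 or S100a9 or any myeloid marker (adjusted p = 0.885 and 0.669). The median B cell held 1766, 2059 and 1800 UMIs in αPD-1 replicates 1 to 3 and 1419, 1962 and 1927 in corin-treated replicates 1 to 3. In total 5652747 UMIs of αPD-1 B cells were set against 353356 UMIs of corin-treated B cells, so every value of the latter group is the less precise.

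Cell barcodes were also compared between libraries. Of the B cells, 32 had a barcode that was also in another library, and none was a B cell in both.

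Myeloid RNA was present in many of the few B cells of the corin-treated tumors, and it touches the results that follow. S100a8 or S100a9, the abundant calcium-binding proteins of neutrophils, had a UMI in 5, 3 and 9 B cells of the αPD-1 samples (0.76%, 0.485% and 0.935%). In the corin-treated samples they had a UMI in 27, 26 and 0 B cells (37.0%, 44.8% and 0%). The minimum for a barcode taken as a neutrophil was 20 UMIs of S100a8, S100a9, Csf3r, Retnlg and Cxcr2 together. That many were in 2, 3 and 7 αPD-1 B cells and in 23, 15 and 0 corin-treated B cells. Such barcodes can hold RNA of more than 1 cell and stayed in the main results. The third corin-treated sample thus stood apart from the other two, with none of the 5 neutrophil markers detected in its 15 B cells. A UMI of any neutrophil or macrophage marker was found in 20.4%, 20.7% and 26.2% of the αPD-1 B cells and in 67.1%, 51.7% and 46.7% of the corin-treated ones. The summed level of the 5 neutrophil markers ran from 75.8 to 247 CPM in the αPD-1 B cells and was 12000, 15400 and 0 CPM in the corin-treated B cells. This was not particular to B cells. Over each group, S100a9 stood at 33.9 CPM in αPD-1 and 1750 CPM in corin-treated T cells, and at 24.3 and 1240 CPM in macrophages. In B cells S100a9 stood at 75.5 and 7520 CPM. The summed level of the 4 macrophage and monocyte markers outside the rule (Csf1r, Cd68, Lyz2 and Ly6c2) ran from 1050 to 1400 CPM in the αPD-1 B cells and was 3230, 408 and 442 CPM in the corin-treated B cells. Results are therefore also given over the B cells without such a UMI, a choice made after seeing the data. This left 524, 490 and 711 B cells in the αPD-1 against 24, 28 and 8 in the corin-treated samples. Ly6c2, 1 of the markers used, was not particular to macrophages. It stood at 413 CPM in αPD-1 and 564 CPM in corin-treated T cells, and at 607 and 871 CPM in plasma cells. In macrophages it stood at 95.6 and 206 CPM. Ly6c2 had a UMI in 10.2% of αPD-1 and 12.3% of corin-treated B cells. A B cell left out for Ly6c2 alone was thus not shown to hold myeloid RNA, and leaving Ly6c2 off the list was not tested.

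**Figure D1:**
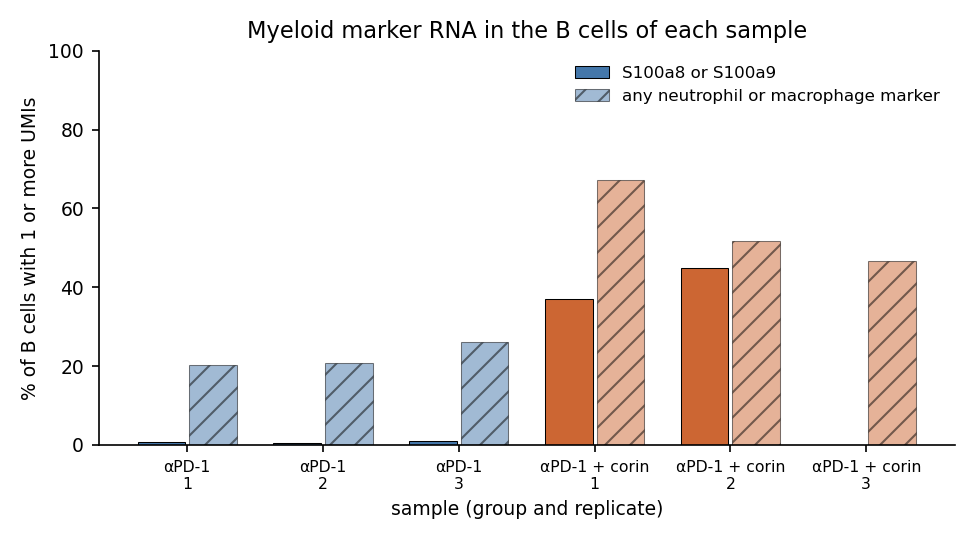
Percent of the B cells of each sample with at least 1 UMI of S100a8 or S100a9 (solid bars) and of any neutrophil or macrophage marker (hatched bars), in αPD-1 samples (blue) and αPD-1 + corin samples (orange). S100a8 or S100a9 was found in under 1% of B cells of each αPD-1 sample, in 37.0% and 44.8% in the first and second αPD-1 + corin samples and in none of the 15 B cells of the third.

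The first comparison asked how large a share of the cells enriched for CD45 were B cells under each treatment. B cells made up 14.7% (95% Wilson interval 13.7 to 15.8), 16.4% (15.3 to 17.6) and 21.8% (20.6 to 23.0) of kept barcodes in the αPD-1 samples. They made up 0.878% (0.699 to 1.1), 1.39% (1.08 to 1.79) and 0.304% (0.184 to 0.501) in the corin-treated samples. The groups did not overlap, and the means were 17.6% ± 3.67 (SD, n = 3) and 0.857% ± 0.543 (SD, n = 3), a ratio of 20.6. The two-sided exact permutation test gave p = 0.1, the smallest value that 3 against 3 samples allow. The intervals cover counting error only, and a share falls as other cells rise, so the number of B cells in a tumor was not measured. The ratio was 36.4 over B cells with no neutrophil or macrophage marker UMI and 33.3 with at least 5 UMIs of Cd79a, Cd79b and Ms4a1, and between 17.2 and 32.3 in the other settings, and it ran from 15.6 (without corin-treated replicate 3) to 29.8 (without corin-treated replicate 2) with 1 sample left out.

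**Figure D2:**
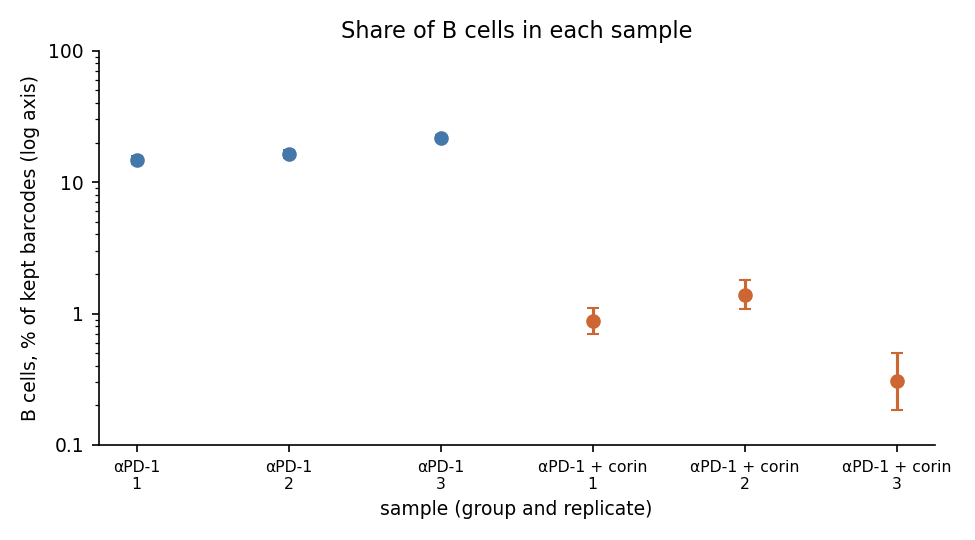
Share of B cells among kept barcodes in each sample, in percent on a log axis, with 95% Wilson intervals that cover counting error only. The 3 αPD-1 samples (blue) lie between 14.7% and 21.8% and the 3 αPD-1 + corin samples (orange) between 0.304% and 1.39%.

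The rule cut into a continuous range of marker levels. Among barcodes that met the other limits, 206 αPD-1 and 56 corin-treated barcodes lay just outside it with 2 UMIs of Cd79a, Cd79b and Ms4a1, and 195 and 42 lay just inside with 3 UMIs. The median B cell held 8, 8 and 7 UMIs of these genes in the αPD-1 against 4, 6 and 4 in the corin-treated samples. Of all kept barcodes with at least 3 such UMIs, 4200 in the αPD-1 and 273 in the corin-treated samples, a Cd3 UMI removed 1429 and 58. With the limits on Cd3 and C1q UMIs left out, the shares were 30.2% ± 3.98 and 1.53% ± 0.775 (SD, n = 3 each).

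The second comparison asked whether the B cells left in the corin-treated tumors had the same makeup. Each B cell was thinned to 1000 UMIs so that depth did not set detection, which left out 37 αPD-1 and 5 corin-treated B cells that were shallower. Ighd, the constant gene of IgD, was detected in 51.9%, 44.4% and 48.8% of the thinned αPD-1 B cells and in 38.2%, 31.0% and 20.0% of the thinned corin-treated B cells. Fcer2a was detected in 28.5%, 35.3% and 23.1% against 8.82%, 20.7% and 13.3%. Cr2 was detected in 16.7%, 18.9% and 18.1% against 7.35%, 15.5% and 6.67%. For all 3 genes every αPD-1 sample lay above every corin-treated sample.

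Combinations of the genes gave the same order. Cells with both Ighd and Fcer2a, the follicular combination, made up 14.9% ± 2.63 of αPD-1 and 4.43% ± 5.33 of corin-treated B cells (SD, n = 3 each). Cells with Cr2 and no Fcer2a UMI made up 12.2% ± 1.06 and 7.55% ± 0.991 (SD, n = 3 each). Counts were low in the corin-treated samples, at 2, 6 and 0 cells for Ighd with Fcer2a and 5, 5 and 1 for Cr2 without Fcer2a. Each of these 5 shares had a two-sided exact permutation p = 0.1, the smallest possible, and an adjusted p = 0.12 over the 6 subsets tested. In T cells of the αPD-1 samples, which had a median of 2703 UMIs before thinning, Ighd was found in 1.15%, Fcer2a in 0.383% and Cr2 in 0.319%, so the B cell shares lay above those of cells that should lack the genes. Without thinning, the mean shares in αPD-1 and corin-treated B cells were 72.5% and 47.0% for Ighd, 47.6% and 22.4% for Fcer2a, and 31.8% and 15.1% for Cr2, but Cr2 without Fcer2a then overlapped, at 14.7% and 12.8% (exact permutation p = 0.5). Thinned to 500 UMIs, Fcer2a (17.4% and 11.2%) and Cr2 without Fcer2a (7.11% and 6.35%) overlapped between groups (exact permutation p = 0.3 each).

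Most of these differences were no longer free of overlap once B cells with myeloid marker RNA were left out. Cr2 was then found in 18.7% ± 1.2 and 19.2% ± 6.29 (exact permutation p = 1.0), Ighd in 51.8% ± 4.43 and 36.0% ± 25.4 (exact permutation p = 0.4) and Fcer2a in 32.0% ± 5.51 and 22.9% ± 7.03 (exact permutation p = 0.2; SD, n = 3 each). Cells with both Ighd and Fcer2a still did not overlap, at 17.0% ± 2.98 against 4.05% ± 3.67 (exact permutation p = 0.1, adjusted p = 0.6 over the 6 subsets). These corin-treated shares rest on 20, 28 and 8 thinned B cells, and Ighd alone ran from 17.9% to 65.0% among them.

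**Figure D3:**
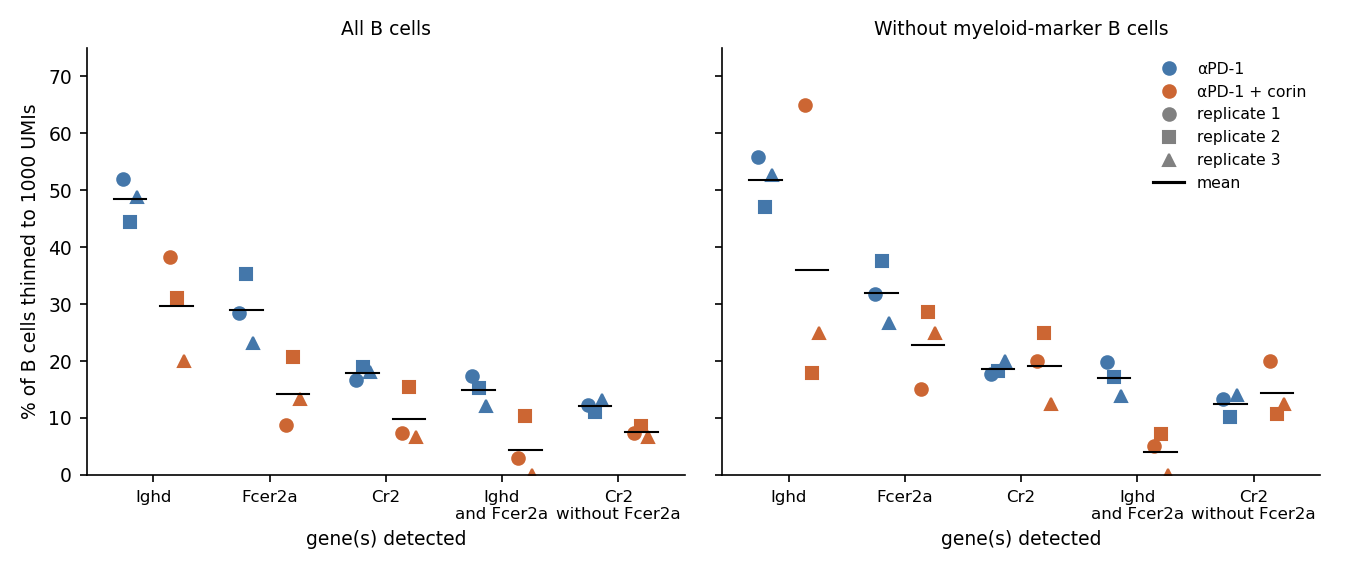
Percent of B cells, thinned to 1000 UMIs, in which Ighd, Fcer2a, Cr2, Ighd with Fcer2a, or Cr2 without Fcer2a was detected, for each sample (points) with group means (lines), over all B cells (left) and without B cells that held a neutrophil or macrophage marker UMI (right). On the left the groups do not overlap for any of the 5; on the right they overlap for all but Ighd with Fcer2a.

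Few class-switched B cells were found in the αPD-1 samples, and none among the 146 B cells of the corin-treated samples. By the switched rule, which needs at least 2 UMIs of IgG, IgA or IgE constant genes and no UMI of Ighd, 7, 0 and 10 B cells were found in the αPD-1 samples without thinning. After thinning they made up 0.609% ± 0.554 of αPD-1 B cells and 0 of the 68, 58 and 15 corin-treated B cells, which allows shares of up to 4.41%, 5.17% and 20.0%. Thinned T cells of the αPD-1 samples met the same rule in 0.639%, so the mean αPD-1 share is at background. At least 1 switched UMI was seen in 114, 20 and 99 αPD-1 B cells and in 1, 2 and 1 corin-treated B cells without thinning. After thinning the pooled shares were 6.4% of αPD-1 and 1.42% of corin-treated B cells. Cells that should not switch differed in the same direction, with 4.02% and 0.105% of T cells and 2.77% and 0% of macrophages. The counts are thus not a measure of switching in B cells. Of 443 Ighg1 UMIs in the first αPD-1 sample, 306 were in 1 cell. Plasma cells of the same samples, by contrast, held 25800, 17900 and 29000 CPM of Ighg1, against 271, 4.31 and 43.5 CPM in B cells. A planned comparison of switched with Ighd-bearing B cells was not run, because no sample had more than 10 switched cells and only 1 sample had that many.

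Kappa and lambda light chains gave different answers by constant and by variable genes. In most mice kappa is the dominant light chain. Iglc genes took 61.6%, 66.1% and 57.5% of the UMIs of Igkc and the Iglc genes in the αPD-1 B cells and 59.6%, 62.1% and 60.4% in the corin-treated B cells (means 61.7% ± 4.29 and 60.7% ± 1.25, SD, n = 3 each; exact permutation p = 0.8). Of the UMIs of variable genes, Iglv genes took only 7.31%, 8.19% and 7.43% against 7.87%, 4.8% and 4.59% (exact permutation p = 0.3). The B cells whose variable-gene UMIs were of kappa also held Iglc2, with a UMI in 84.2%, 87.5% and 79.6% of them in the αPD-1 samples, at 2.93, 2.94 and 2.44 UMIs a cell. Cells of lambda by variable genes held no more on average in 2 of those samples, at 2.19, 3.35 and 2.15 Iglc2 UMIs a cell. In T cells of the αPD-1 samples Iglc2 had a UMI in 0.575%. The Iglc2 signal therefore belonged to B cells but did not separate them by light chain, and the lambda share by constant genes is not a share of lambda cells. By variable genes, 16, 20 and 27 αPD-1 B cells and 4, 2 and 1 corin-treated B cells were of lambda, or 3.05% ± 0.406 and 6.27% ± 2.22 of cells with at least 2 such UMIs (exact permutation p = 0.1).

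**Figure D4:**
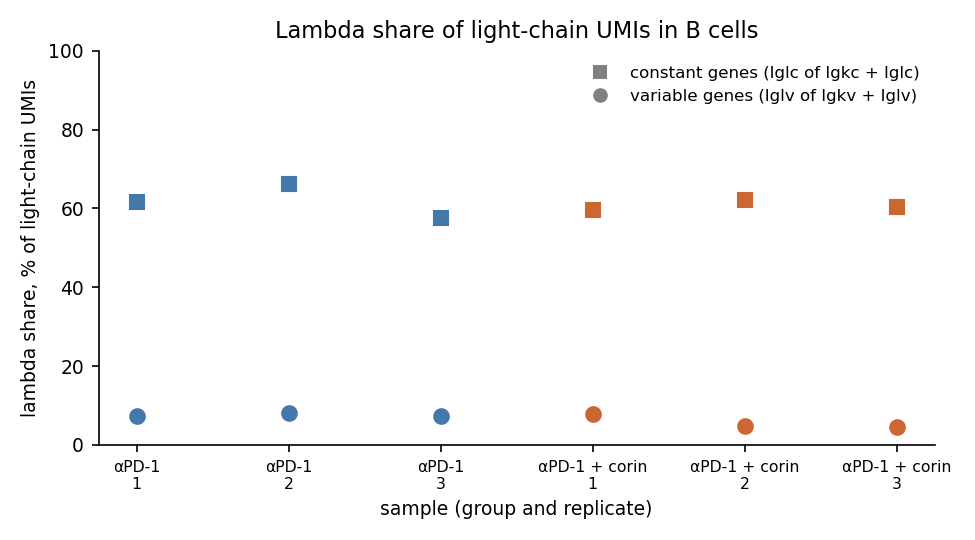
Lambda share of light-chain UMIs in the B cells of each sample, from constant genes (squares) and from variable genes (circles), for αPD-1 samples (blue) and αPD-1 + corin samples (orange). The share is between 57.5% and 66.1% by constant genes and between 4.59% and 8.19% by variable genes.

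The variable genes in use were diverse. Among 798 αPD-1 B cells with 1 dominant Ighv gene, 86 genes were seen, and the most frequent, Ighv1-26, was in 44 cells (5.51%). Genes of family 1 took 58.4% of these cells. In the corin-treated samples 40 such cells held 28 genes, with at most 3 cells a gene. Among Igkv genes, Igkv10-96 was the most frequent in each αPD-1 sample, at 8.57%, 7.05% and 6.08% of cells with a dominant gene, or 88 of 1255 pooled. No gene took a majority of a sample, and cells that share a gene were not shown to be of 1 clone, since no joined sequence was read.

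The third comparison asked which genes differed in B cells between treatments. UMIs were summed over the B cells of each sample and tested with edgeR's quasi-likelihood test, and the CPM given from here on for all B cells are scaled by TMM (trimmed mean of M values), whereas those for other cells or for part of the B cells are not. Of 8292 genes tested, 207 (2.5%) were higher and 101 (1.22%) were lower in corin-treated B cells at an adjusted p under 0.05, and 23.0% of the genes tested did not overlap between groups. Without B cells that held S100a8 or S100a9, 33 of 8158 genes (0.405%) were higher and 58 (0.711%) lower, and without those that held any neutrophil or macrophage marker 19 of 6473 (0.294%) were higher and 59 (0.911%) lower. Counts fell to 99 higher and 20 lower without αPD-1 replicate 1, to 112 and 29 without replicate 2, to 117 and 43 without replicate 3, and to 119 and 52 without corin-treated replicate 1. With 15 B cells drawn from each sample, 0 of 462 genes passed edgeR's test and 74 had an unadjusted p under 0.05.

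The largest rises were in genes that neutrophils of the corin-treated samples also held. The 10 named by a fixed rule (adjusted p under 0.05, no overlap and at least 20 CPM in the higher group) were Tgm1, Hcar2, Olr1, Upp1, Fpr2, F3, Ptgs2, Pygl, Ifitm1 and Pdpn, with log2 differences from 5.94 to 2.73, and they stood at 45.2 to 2000 CPM in barcodes taken as neutrophils of the corin-treated samples. Hcar2, a receptor for hydroxybutyrate, stood at 24.0, 5.68 and 13.9 CPM in the αPD-1 samples and at 525, 901 and 90.7 CPM in the corin-treated samples (log2 difference 5.34, adjusted p = 1.11e-05), and at 2000 CPM in those neutrophils. Ptgs2, the inducible cyclooxygenase, stood at a mean of 34.1 and 383 CPM in the B cells of the groups and at 1640 CPM in those neutrophils. None of the 10 passed the threshold without B cells that held any neutrophil or macrophage marker, where none of them had counts enough to be tested, and of the 4 that could be tested without those that held S100a8 or S100a9 (Hcar2, Ptgs2, Ifitm1 and Pdpn), Ifitm1 passed (log2 difference 2.43, adjusted p = 0.0126). The calls of F3 without corin-treated replicate 3 (adjusted p = 0.0611), of Pygl without replicate 1 (0.324) and of Pdpn without replicate 1, 2 or 3 (0.399, 0.0597 and 0.061) were lost.

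Heat shock genes fell together. This list of 12 chaperone genes was chosen after their values were seen, so its count is a description. Of the 12, 11 were lower and none higher, against 1.22% lower and 2.5% higher over all genes tested. Their median log2 difference was -1.65 against -0.05 over all genes tested. Hspb1, a small heat shock protein and 1 of the 10 largest falls named by the rule, stood at 392, 555 and 234 CPM in the αPD-1 samples and at 0, 7.26 and 90.7 CPM in the corin-treated samples (log2 difference -4.65 ± 0.68 SE, adjusted p = 0.000637). Hspa1a, an inducible HSP70, stood at 3630, 3800 and 3150 CPM against 457, 283 and 1500 CPM (-2.43 ± 0.39, adjusted p = 0.00122). The third corin-treated sample was the highest of its group for both genes, yet lay under every αPD-1 sample. Hspa1b is a near-identical copy of Hspa1a, and reads could be split between them.

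The other chaperones that fell work in several compartments. Hspe1 and Hspd1, the mitochondrial chaperonin pair, differed by -1.64 and -1.54 (adjusted p = 0.000394 and 0.000976), Hsp90aa1, the inducible HSP90, by -1.41 (adjusted p = 0.00122), and the cochaperones Dnajb1 and Dnaja1 by -1.83 and -1.07 (adjusted p = 0.0171 and 0.0267). Hsp90ab1, the constitutive HSP90, did not pass (-0.39, adjusted p = 0.44). In CPM not scaled by TMM, Dnajb1 and Hsp90ab1 overlapped between groups. Dnajb1 stood at 1130 CPM in αPD-1 replicate 3 and at 1230 CPM in corin-treated replicate 3. In the latter sample Hsp90ab1 stood at 3760 CPM, against 3420 CPM in αPD-1 replicate 2, the highest of that group. Over B cells without myeloid marker RNA 9 of the 12 were lower, against 0.911% of all genes tested there. The median was -1.64 against -0.22 over all genes tested there, and Hspb1 had 508, 632 and 370 UMIs against 0, 0 and 0. Hspb1 and Hspe1 passed in each alternative in which they were tested, Hspa1b, Dnajb1, Dnaja1 and Hspa8 did not pass with DESeq2 (adjusted p = 0.15, 0.161, 0.101 and 0.0875), and the calls of Hspa1a, Hspa1b, Hsph1, Dnajb1 and Dnaja1 were lost without any 1 of the αPD-1 samples (adjusted p between 0.0681 and 0.25). The call of Hspa8, the constitutive HSP70, was also lost without any sample but corin-treated replicate 3 (adjusted p between 0.0567 and 0.327), without the S100a8 and S100a9 cells (0.0816) and without myeloid marker RNA (0.0528). The call of Hsp90aa1 was lost without αPD-1 replicate 1 or 2 (0.0664 and 0.0766), and Hsp90ab1 passed without corin-treated replicate 3 (log2 difference -0.78, adjusted p = 0.00938).

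The summed level of the 12 heat shock genes was 20700, 23000 and 17600 CPM in αPD-1 B cells and 6020, 5140 and 14800 CPM in corin-treated B cells, with CPM not scaled by TMM. The third corin-treated sample lay between the other two and the αPD-1 samples, and over B cells without myeloid marker RNA, of which it had 8, it stood at 22100 CPM, within the αPD-1 range of 18900 to 24600. The same sum was 13000, 12600 and 9550 CPM in T cells of the αPD-1 samples and 5700, 5960 and 10200 CPM in those of the corin-treated samples. In macrophages it was 6170, 5480 and 5440 against 3580, 3390 and 4800 CPM. The first and second corin-treated samples were thus the lowest in all 3 cell types. Tumors were digested with enzymes, frozen and thawed before capture, and the part of handling in these levels was not tested.

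Heat shock factor binds inverted repeats of GAA, and the promoters of these genes are shown because the genes moved together. RefSeq promoters (GRCm38.p6, 250 bases before to 50 after each start) were found for 9 of the 12 genes and not for Hspa8, Hsp90aa1 and Hsp90ab1. The motif GAANNTTC, which is its own reverse complement and so was read on both strands, was in 9 of the 14 promoters of those genes and in 2582 of all 32851 promoters (7.86%). It was in at least 1 promoter of 8 of the 9 genes, Dnajb1 being the exception, and of 2442 of all 27025 genes (9.04%). The list was made of heat shock genes, so these counts are a description. The 30-base windows that follow carry it in capitals, for Hspb1 at chr5:135887791-135887820 on the plus strand, for Hspa1a at chr17:34972242-34972271 on the minus strand, for Hspa1b at chr17:34959324-34959353 on the minus strand and for Hspe1 at chr1:55088053-55088082 on the plus strand.
Hspb1: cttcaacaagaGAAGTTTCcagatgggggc
Hspa1a: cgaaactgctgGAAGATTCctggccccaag
Hspa1b: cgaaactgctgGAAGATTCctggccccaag
Hspe1: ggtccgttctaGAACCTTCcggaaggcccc
The windows of Hspa1a and Hspa1b are identical, and that of Hspe1 is also in a promoter of Hspd1, which is read from the opposite strand. A match to the letters does not show that a factor was bound.

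Genes of B cell identity were lower in part. Of the follicular genes both fell: Ighd stood at 719, 570 and 656 CPM in the αPD-1 samples and at 300, 436 and 227 CPM in the corin-treated samples (log2 difference -0.93 ± 0.22, adjusted p = 0.025), and Fcer2a at 320, 432 and 257 CPM against 143, 160 and 68.0 CPM (-1.28 ± 0.29, adjusted p = 0.0194). Both passed without B cells that held myeloid markers (-1.08 and -1.60, adjusted p = 0.0261 and 0.00349). The call of Ighd was lost without αPD-1 replicate 1, 2 or 3 or corin-treated replicate 1 (adjusted p between 0.0522 and 0.099), and that of Fcer2a without αPD-1 replicate 1 or 2 (0.0638 and 0.0623). Fcmr, the receptor for IgM, stood at 562, 635 and 562 CPM against 218, 276 and 159 CPM (-1.34 ± 0.21, adjusted p = 0.00113). It was chosen after its values were seen, and it did not pass with equal numbers of B cells (adjusted p = 0.325).

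Of 14 transcription factors of the lineage 5 were lower and none higher, against 1.22% lower over all genes tested. The median log2 difference of the 14 was -0.79. Bach2, a repressor that holds back plasma cell differentiation, stood at 1590, 1380 and 1720 CPM in the αPD-1 samples and at 662, 879 and 884 CPM in the corin-treated samples (-0.97 ± 0.19, adjusted p = 0.00788). Bcl11a, needed for B cell development, stood at 294, 315 and 313 CPM against 123, 153 and 136 CPM (-1.16 ± 0.21, adjusted p = 0.00491) and passed in each alternative in which it was tested. Mef2c (-0.84), Ikzf3 (-0.92) and Ikzf1 (-0.81) were the other 3. Without myeloid marker RNA Bach2, Bcl11a and Mef2c still passed (adjusted p = 0.00984, 0.0492 and 0.00812), and Ikzf3 and Ikzf1 did not (0.275 and 0.128). Leaving out 1 sample ended the calls of Bach2 (αPD-1 replicate 1 or 3, adjusted p = 0.0777 and 0.0867) and of Mef2c, Ikzf3 and Ikzf1 (any αPD-1 replicate or corin-treated replicate 1, adjusted p between 0.0614 and 0.135, and for Ikzf1 also corin-treated replicate 2, 0.0718). Mef2c also did not pass with the highest Scrublet doublet scores removed (adjusted p = 0.056). Ikzf3 and Ikzf1 did not pass without the S100a8 and S100a9 cells (0.0581 and 0.0549). Ebf1 and Foxp1 stood at 1850 and 1570 CPM in the αPD-1 samples and at 1170 and 1190 CPM in the corin-treated samples and did not pass (adjusted p = 0.0991 and 0.296), but Ebf1 passed without corin-treated replicate 2 (adjusted p = 0.00698).

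Genes of the antigen receptor pathway mostly had negative log2 differences, and 2 passed the test. Of 17 genes of the receptor complex and its signaling outside the rule, 15 had a negative log2 difference. At the threshold 2 were lower and none higher, against 1.22% lower and 2.5% higher over all genes tested. The median log2 difference of the 17 was -0.54 against -0.05 over all genes tested. Cd79a and Cd79b chose the cells and are given without a test, at means of 1960 and 959 CPM in the αPD-1 and 1390 and 701 CPM in the corin-treated samples. Ptpn6, the phosphatase SHP-1 that restrains the receptor, stood at 323, 347 and 289 CPM against 157, 153 and 136 CPM (-1.07 ± 0.22, adjusted p = 0.00913), and Ralgps2 stood at 615, 623 and 627 CPM against 246, 479 and 204 CPM (-0.91 ± 0.24, adjusted p = 0.0441). Both also passed without myeloid marker RNA. The call of Ptpn6 was lost without αPD-1 replicate 1 (adjusted p = 0.0501), and that of Ralgps2 without each sample but corin-treated replicate 2 (between 0.0518 and 0.164) and with DESeq2 (0.0611). Bank1, Prkcb and Lyn were among the 15 genes that did not pass (adjusted p = 0.264, 0.245 and 0.455), and Bank1 and Prkcb passed without corin-treated replicate 2 (0.00326 and 0.00518) and with no filter on low counts (0.0167 and 0.0251).

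Of 10 genes of MHC class II presentation 3 were lower and none higher, against 1.22% lower over all genes tested. The median log2 difference of the 10 was -0.39. H2-Oa and H2-Ob, the 2 chains of H2-O, which restrains peptide loading in B cells, differed by -1.80 ± 0.29 (adjusted p = 0.00137) and -0.93 ± 0.20 (adjusted p = 0.0118). H2-Oa stood at 289, 246 and 229 CPM in the αPD-1 samples and at 47.8, 102 and 68.0 CPM in the corin-treated samples, and H2-Ob at 492, 502 and 490 CPM against 225, 298 and 249 CPM. Ciita, the activator of class II transcription, stood at 241, 232 and 254 CPM against 116, 109 and 181 CPM (-0.98 ± 0.23, adjusted p = 0.0267). The abundant class II genes did not pass, with Cd74 at means of 14700 and 11200 CPM (adjusted p = 0.138) and H2-Aa at 4570 and 3580 CPM (0.266). All 3 called genes passed without B cells that held myeloid markers (adjusted p = 0.0106, 0.018 and 0.022). H2-Oa passed in each alternative in which it was tested, the call of H2-Ob was lost without any αPD-1 replicate or corin-treated replicate 1 (adjusted p between 0.0522 and 0.0656), that of Ciita was lost without any sample but corin-treated replicate 3 (between 0.0722 and 0.11), and by leaving out S100a8 and S100a9 cells (0.143), and Cd74 passed without αPD-1 replicate 3 (0.0457).

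**Figure D5:**
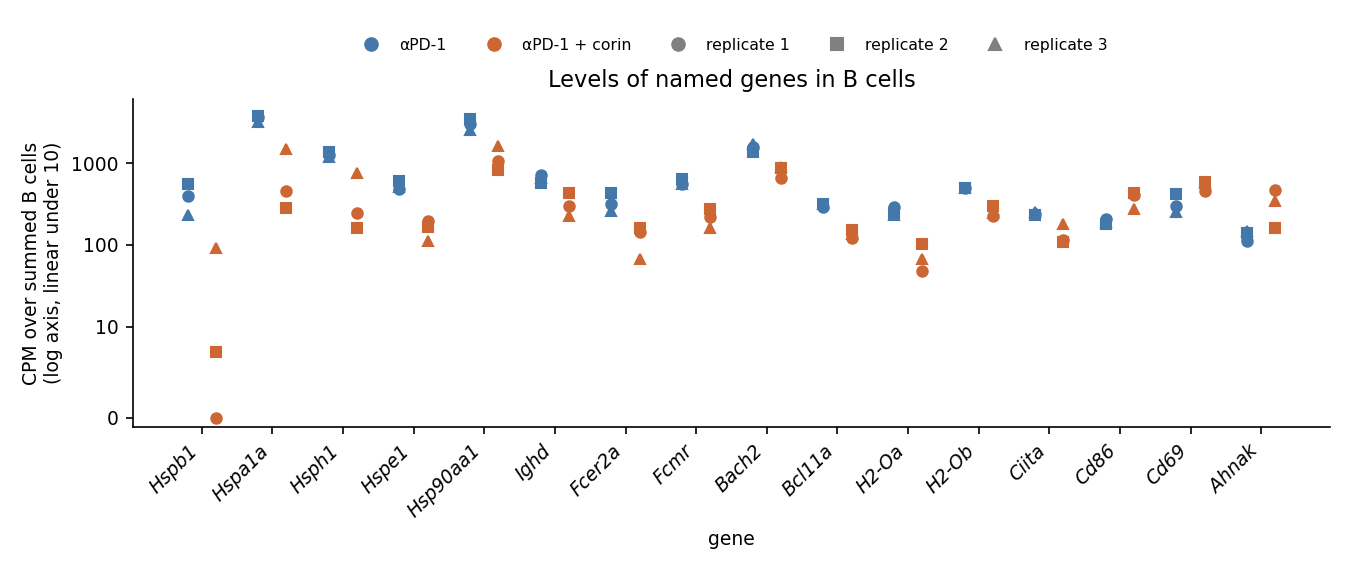
CPM of 16 named genes over the summed B cells of each sample, on an axis that is logarithmic above 10 CPM and linear below, for αPD-1 samples (blue) and αPD-1 + corin samples (orange), with the replicate shown by the marker. The 13 genes on the left (heat shock, follicular, Fcmr, transcription factor and class II) are lower in every αPD-1 + corin sample than in every αPD-1 sample, and Cd86, Cd69 and Ahnak on the right are higher. The genes were picked from those named, and 23.0% of all genes tested did not overlap between groups. The heat shock genes shown are a part of the list: Hspb1, Hspa1a, Hsph1, Hspe1 and Hsp90aa1.

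Genes of activation went both ways. Of 20 genes 4 were higher (Egr1, Ccl4, Cd86 and Ccl3) and 1 was lower (Jun), against 2.5% and 1.22% over all genes tested. The median log2 difference of the 20 was -0.03. Cd86, a costimulatory ligand for T cells, stood at 205, 181 and 188 CPM in the αPD-1 samples and at 403, 436 and 272 CPM in the corin-treated samples (1.04 ± 0.19, adjusted p = 0.00409). The chemokine gene Ccl3 stood at 159, 148 and 150 CPM against 1210, 3250 and 113 CPM, so the third corin-treated sample lay under the αPD-1 samples. Without myeloid marker RNA none of these 4 rises passed (adjusted p between 0.295 and 0.988), while Jun, a part of the AP-1 factor, did (-1.19, adjusted p = 0.00349). Cd69, an early activation antigen that retains lymphocytes in tissue, stood at 298, 421 and 255 CPM against 450, 588 and 567 CPM and did not pass over all B cells (0.71, adjusted p = 0.0958), but passed without myeloid marker RNA (1.03, adjusted p = 0.00349) at 336, 461 and 283 CPM against 792, 765 and 1250 CPM. The calls of Egr1 without αPD-1 replicate 1 (adjusted p = 0.0538), of Ccl3 without any αPD-1 replicate (0.0559 to 0.0617) and of Jun without any αPD-1 replicate (0.0507 to 0.112) or without the S100a8 and S100a9 cells (-0.71, 0.0828) were lost.

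Of 13 tested genes of memory, atypical and B1 cells 4 were higher (Itgam, S100a6, Ahnak and Cd80) and none lower. Over all genes tested 2.5% were higher. The median log2 difference of the 13 was 0.46. Ahnak, which encodes a large scaffold protein, stood at 113, 141 and 146 CPM in the αPD-1 samples and at 464, 160 and 340 CPM in the corin-treated samples (1.26 ± 0.28, adjusted p = 0.0185). Over B cells without myeloid marker RNA Ahnak stood at 35.7, 60.5 and 49.5 CPM against 311, 302 and 250 CPM (2.43 ± 0.38, adjusted p = 1.17e-07), on 11, 17 and 3 UMIs in the corin-treated samples. Its call over all B cells was lost without any αPD-1 replicate (adjusted p between 0.0826 and 0.135) or corin-treated replicate 1 (0.455). S100a6 did not pass without myeloid marker RNA (adjusted p = 0.158) and Itgam and Cd80 could not be tested there, and Cd80 was lost without any corin-treated replicate (between 0.0564 and 0.222). Itgam and Cd80 stood at 509 and 171 CPM in the neutrophils of the corin-treated samples.

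The remaining lists gave few calls. None of 14 homing and survival receptors passed (median log2 difference -0.34), among them Klf2, Ccr7 and Ltb, whose adjusted p ran from 0.0503 for Ltb to 0.515 for Klf2. Ltb, a ligand that helps organize lymphoid tissue, stood at 298, 391 and 289 CPM against 157, 211 and 45.3 CPM and passed in 7 of 16 alternatives, among them without corin-treated replicate 2 (adjusted p = 0.0149), with RLE size factors (0.0465) and with immunoglobulin genes left out (0.039). Tnfrsf13c, the receptor for BAFF, passed without corin-treated replicate 2 (0.00694) and with no filter on low counts (0.00225). Of 7 marginal zone genes Cr2 was lower (-1.10, adjusted p = 0.0467) and Cd9 higher (2.88, adjusted p = 4.51e-05), against 1.22% lower and 2.5% higher over all genes tested. Neither passed without myeloid marker RNA (adjusted p = 0.841 and 0.931). The call of Cr2 was also lost without any sample but corin-treated replicate 2 (adjusted p between 0.0645 and 0.305). It was lost as well without the S100a8 and S100a9 cells (0.31) and with the highest Scrublet doublet scores removed (0.0712). Of 7 germinal center genes Basp1 alone passed (1.43, adjusted p = 0.0267), against 2.5% higher over all genes tested. Its call was lost without any αPD-1 replicate or corin-treated replicate 1 (0.0662 to 0.577).

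Of 16 interferon-stimulated genes 1 was higher and 1 lower, against 2.5% and 1.22% over all genes tested. The median log2 difference of the 16 was -0.69. Rsad2, an antiviral protein, was the higher one (2.21, adjusted p = 0.00463). It did not pass without S100a8 and S100a9 cells (adjusted p = 0.98), and its call was lost without αPD-1 replicate 1 (0.0501) or corin-treated replicate 1 (0.174). None of 5 cytokine genes, 6 innate sensors or 8 subunits of CoREST passed, with medians of -0.57, -0.09 and -0.38. Kdm1a, which encodes LSD1, and Hdac1 stood at 75.7 and 133 CPM in the αPD-1 B cells and at 60.8 and 88.6 CPM in the corin-treated B cells (adjusted p = 0.521 and 0.287).

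Several of the largest falls were genes with no UMI in any corin-treated B cell. The 10 named by the rule were H2-T24, Igkv8-21, Igkv3-7, Igkv14-100, Igkv12-98, Calhm6, Ighv8-8, Hspb1, Lef1 and Casz1. For the first 7 the corin-treated samples were all at 0. Against a floor of 3 UMIs over the group, with UMIs counted as independent, H2-T24 was at least 5.36-fold lower. It is a class I gene outside the classical set. On the same count the bounds for the others were 3.54-fold to 4.69-fold. The 5 variable genes had 37 to 108 UMIs in an αPD-1 sample, but UMIs of a variable gene gather in the cells that use it. Ighv8-8 was the dominant Ighv gene in 26 of 798 αPD-1 B cells (3.26%). In the corin-treated samples only 40 cells had a dominant Ighv gene and 93 a dominant Igkv gene. The absence of the 5 genes there was thus not shown to be a loss. Cells that should lack variable genes also held Igkv8-21, which stood at 22.1 CPM in T cells and 18.7 CPM in macrophages of the αPD-1 samples, against a mean of 39.3 CPM in their B cells, and at 0.225 and 0.0358 CPM in those of the corin-treated samples. Plasma cells of the αPD-1 samples held 12600 CPM of it. The other 4 variable genes stood at no more than 2.34 CPM in T cells or macrophages. Lef1 and Casz1, both transcription factors, had 1 UMI each in the corin-treated samples and lost their calls without corin-treated replicate 1 (adjusted p = 0.203 and 0.213) or 3 (0.0645 and 0.06). The 5 variable genes and Calhm6 lost their calls without corin-treated replicate 1 (adjusted p between 0.0771 and 0.131), as did Igkv8-21, Igkv12-98 and Ighv8-8 without replicate 2 (0.09, 0.0887 and 0.0789) and Igkv8-21 and Igkv12-98 without replicate 3 (0.0622 and 0.0569). Without myeloid marker RNA, or without the S100a8 and S100a9 cells, Hspb1 alone of the 10 passed, although in the fewer corin-treated B cells left without myeloid marker RNA all 10 genes had no UMI.

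The last comparison asked whether ligands that act on B cells differed in the kept barcodes other than B cells, summed per sample. These were not all CD45+ cells: barcodes taken as melanoma cells numbered 99, 49 and 117 in the αPD-1 and 533, 257 and 394 in the corin-treated samples. Of 15665 genes tested there, 470 (3.0%) were higher and 806 (5.15%) lower in the corin-treated samples, and these counts moved from 0 and 0 without αPD-1 replicate 1 to 2058 and 2030 without corin-treated replicate 3. They were 8 and 150 without αPD-1 replicate 2, 0 and 4 without αPD-1 replicate 3, 142 and 446 without corin-treated replicate 1, and 88 and 217 without corin-treated replicate 2. Of 9 ligands tested 1 was higher and 1 lower. Cxcl12, the ligand of CXCR4, stood at 10.3, 4.45 and 10.6 CPM in the αPD-1 samples and at 59.5, 35.6 and 56.0 CPM in the corin-treated samples (2.67 ± 0.37, adjusted p = 0.0237). Cd40lg, the T cell ligand of CD40, stood at 10.3, 7.76 and 7.29 CPM against 1.29, 2.42 and 3.67 CPM (-1.70 ± 0.37, adjusted p = 0.0454).

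Cxcl13, which draws B cells through CXCR5, stood at 1.21, 0 and 1.0 CPM against 6.72, 1.4 and 11.8 CPM and did not pass (3.22 ± 1.06, adjusted p = 0.0947), but passed with DESeq2 (3.24, adjusted p = 0.0121). Il6 stood at 5.23, 3.5 and 3.75 CPM against 17.7, 6.33 and 13.1 CPM (adjusted p = 0.0503), and Tnfsf13b, which encodes BAFF, at 4.08, 6.36 and 3.88 CPM against 1.76, 3.96 and 6.29 CPM (adjusted p = 0.81). The call of Cxcl12 was lost without αPD-1 replicate 1 or 3 (adjusted p = 0.109 and 0.0884), and that of Cd40lg without any αPD-1 replicate (0.117 to 0.165) or without corin-treated replicate 2 (0.0898). Il6 passed without corin-treated replicate 2 or 3 (0.0409 and 0.0474), with DESeq2 (0.000912) and with no filter on low counts (0.0424). These sums mix all other cell types, so a difference in them can come from the share of a type as well as from its level, and these cannot be told apart.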

How the data were processed

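Single-cell 5' RNA-Seq libraries (GEM-X) of 6 samples were analysed. Per the labels and file headers, the authors made UMI counts per gene and barcode with Cell Ranger 8.0 on GRCm39 and deposited filtered matrices; Seurat 5.0.11 is also named in the submitters' processing notes. The deposited values are raw counts of 32285 genes, with 52281422 to 84276739 UMIs a sample. B cells, subsets and gene lists were chosen with earlier results of these data known. Groups came from the labels. Sums of counts over B cells were tested in edgeR 4.0.16 (R 4.3.3) with filterByExpr, TMM and the quasi-likelihood test, adjusted by the Benjamini-Hochberg method over all genes tested; DESeq2 1.42.0 was an alternative. Shares were compared between samples with exact permutation tests, two-sided (scipy 1.17.1), and subset shares were thinned at random to 1000 UMIs a cell. No doublets were removed in the main analysis: Scrublet's own threshold marked 3 of 52899 barcodes, which has not worked, so its 2002 highest scores were removed in an alternative. Named genes were up to 10 rises and 10 falls with adjusted p under 0.05, no overlap and at least 20 CPM in the higher group, plus up to 4 genes of each list and any past the threshold. Simulated data with 200 genes changed 4-fold gave 139 found and 8 false calls in B cells (8292 genes), and 192 and 11 over the other barcodes (15665 genes). Promoters came from RefSeq on GRCm38.p6, whereas the labels name GRCm39. The build behind the deposited gene list was not settled. Values of some genes of the lists are not reported here.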

Additional observations from a re-analysis of the deposited data

How the results depend on the processing

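B cell shares were lower in αPD-1 + corin samples under every alternative run; the difference of means was -16.8 percentage points and -28.7 with the limits on Cd3 and C1q UMIs left out. Without thinning the differences were -25.2 for Fcer2a, -16.7 for Cr2, -24.5 for Ighd with Fcer2a and -1.88 for Cr2 without Fcer2a, and thinned to 500 UMIs they were -6.24, -2.02, -4.27 and -0.765. Without S100a8 and S100a9 cells Cr2 without Fcer2a differed by -3.47, and without any neutrophil or macrophage marker Cr2 and Cr2 without Fcer2a reversed, to 0.486 and 1.94. The lambda difference of -1.01 by constant genes reversed to 3.19 in cells of 1 light-chain type and ran from -3.13 to 1.16 with 1 sample left out, reversed without αPD-1 replicate 2. Genes higher and lower in B cells numbered 400 and 292 with no filter on low counts, 0 and 0 with equal numbers of B cells, 33 and 58 without S100a8 and S100a9, 19 and 59 without any such marker, and 99 to 302 and 20 to 141 with 1 sample left out. Over the other barcodes they numbered 1770 and 1660 with DESeq2, and 0 to 2058 and 0 to 2030 with 1 sample left out. Xbp1 (-0.33 without S100a8 and S100a9 and -1.29 without any such marker), Egr1 (-0.04, without any neutrophil or macrophage marker), Ccl3 (-0.62) and Rsad2 (-0.11, both without S100a8 and S100a9) reversed. The cause of these moves was not tested, except that leaving out an αPD-1 sample also cut the genes tested in B cells to between 3193 and 3207.

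Equal replicate numbers did not pair the samples: deviations of same-numbered samples correlated at 0.028, -0.0169 and -0.0428 in B cells and 0.0365, 0.0604 and -0.136 over the other barcodes. With the replicate number as a block, 141 genes were higher and 74 lower in B cells, and 26 and 61 over the other barcodes. Of the genes called and named above, Ciita, Ikzf1, Cr2, Xbp1, Basp1, Cd80 and Cd40lg did not pass with the block (adjusted p from 0.0762 to 0.137), and Ltb passed (0.0367). The comparison of switched with Ighd-bearing B cells gave no value, and its alternatives were not run. Depth limits all αPD-1 + corin values, which rest on 146 B cells and, for the third sample, on 15. The alternatives that leave out B cells by myeloid markers or drop the limits on Cd3 and C1q, and lambda by variable genes, were chosen after seeing the data.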
